A study of Mus musculus with 45 samples.

Results

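Small leucine-rich proteoglycans are secreted matrix proteins, each a curved array of leucine-rich repeats that mostly carries glycosaminoglycan chains. The 10 genes described here are Dcn, Bgn, Fmod, Lum, Omd, Ogn, Epyc, Prelp, Kera and Aspn, taken by gene name from the 35272 genes joined over the deposited tables. They were measured by RNA sequencing in CD1 mouse forelimb buds taken on gestation day 13 and kept in culture for 3, 24 or 48 h. The medium held the solvent dimethyl sulfoxide (DMSO) alone, 1 µM BPAF or 5 µM BPAF, with 5 libraries in each of the 9 groups. The titles name the compound BPAF, the usual short name of bisphenol AF, a fluorinated relative of bisphenol A; the treatment protocol spells BPAF out as bisphenol A, so its identity rests on the short name. The study's title asks about effects of such compounds on endochondral bone formation and gene expression in limb cultures. Per the labels, excised forelimbs were pooled in bottles, limbs of both sexes together, so a library is a bottle of whole limbs and not 1 embryo. All groups share excision, an oxygen-rich gas phase and growth outside the embryo. No uncultured limb is among the 45 libraries.

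These proteoglycans sit on collagen fibrils or in the matrix between them. Decorin (Dcn), biglycan (Bgn) and asporin (Aspn) form one class: they bind fibrillar collagen and can hold TGF-beta in the matrix, and the first 2 carry chondroitin or dermatan sulfate chains. Fibromodulin (Fmod), lumican (Lum), keratocan (Kera), osteomodulin (Omd) and the heparin-binding protein of Prelp form a second class, several of them with keratan sulfate chains. They set fibril diameter and spacing in tendon, cartilage, cornea and bone. Epiphycan (Epyc), found in growth cartilage, and osteoglycin (Ogn) form the third class. In the limb, members of the family are known from cartilage, tendon, dermis and bone.

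Total counts per library ran from 14901842 to 25154115 with a median of 17820524, and all 10 genes passed the low-count filter in every comparison. In 7 of the 45 libraries the markers of one sex were almost missing: 4 Y-linked genes summed to under 1 CPM, the read count scaled to the normalised size of its library, or Xist lay under 5 CPM. That goes against the label that both sexes shared a bottle, so counts were repeated without those libraries. In the group cultured for 3 h with 1 µM BPAF, the treatment field of replicate 5 names a different compound and dose, and its title placed it. No call for any of the 10 genes at 1 µM and 3 h changed when it was left out. The defining markers of cartilage, tendon, muscle and bone precursors each gave reads in at least 1 library of each group, as a whole limb should show. Not all were well expressed. Of 8 hypertrophic and osteoblast markers 7 passed the low-count filter, and of 6 muscle markers 5 did so in some comparisons. Labels number the replicates but do not say that they came from separate litters, so p-values measure the spread between these bottles.

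In the mouse genome (build mm10), 9 of the 10 genes lie in 3 groups of neighbours. On chromosome 10, Dcn, Lum, Kera and Epyc follow each other on the plus strand over 203 kb, from chr10:97479609 to 97682454. On chromosome 13, Aspn, Omd and Ogn lie within 80.1 kb, from chr13:49544443 to 49624501, with 14.9 and 15.2 kb between them. On chromosome 1, Prelp (minus strand) and Fmod (plus strand) lie 115.8 kb apart between 133910304 and 134048277. Bgn lies alone on the X chromosome, from 73483602 to 73495933. The 3 genes of chromosome 13 lie inside Cenpp, a centromere protein gene read from the opposite strand. The sources used here do not say whether counting used strand. The exons of Cenpp share 7 bases with those of Aspn and none with those of Omd and Ogn in the GENCODE M21 annotation. Cenpp averaged 112 reads per library. Its log2 fold change at 5 µM and 48 h was 0.03 (SE 0.17, adjusted p = 0.95, edgeR). Whether it differed from those of the 3 genes was not tested.

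The stretch of 250 bases before the start site is shown for the 3 neighbours of chromosome 13 and for Fmod. At 5 µM BPAF and 48 h Omd and Ogn were called by edgeR and Aspn was not. Whether their effects differed from one another was not tested. Each stretch is given 5′ to 3′ on the plus strand, from RefSeq tables of GRCm38.p6. Capitals mark 3 motifs searched on both strands: TATAAA (the TATA box), AGGTCA (the half-site of nuclear receptors) and CANNTG (the E-box). They lie at chr13:49544193-49544442 (Aspn), chr13:49582212-49582461 (Omd), chr13:49607765-49608014 (Ogn) and chr1:134037004-134037253 (Fmod).
Aspn: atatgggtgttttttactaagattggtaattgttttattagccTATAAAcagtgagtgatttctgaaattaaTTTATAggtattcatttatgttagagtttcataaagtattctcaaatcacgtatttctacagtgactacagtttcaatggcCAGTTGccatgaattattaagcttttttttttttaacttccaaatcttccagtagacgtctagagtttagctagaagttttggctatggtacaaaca
Omd: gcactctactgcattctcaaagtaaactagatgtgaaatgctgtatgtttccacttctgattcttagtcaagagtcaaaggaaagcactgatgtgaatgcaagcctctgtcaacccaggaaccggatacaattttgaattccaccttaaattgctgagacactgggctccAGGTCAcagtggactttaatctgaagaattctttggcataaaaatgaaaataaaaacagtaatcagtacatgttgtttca
Ogn: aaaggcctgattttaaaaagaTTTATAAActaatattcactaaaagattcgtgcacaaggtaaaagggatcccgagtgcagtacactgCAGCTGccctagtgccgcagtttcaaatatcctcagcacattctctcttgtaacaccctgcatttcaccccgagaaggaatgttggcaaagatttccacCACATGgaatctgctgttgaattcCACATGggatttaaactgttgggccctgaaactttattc
Fmod: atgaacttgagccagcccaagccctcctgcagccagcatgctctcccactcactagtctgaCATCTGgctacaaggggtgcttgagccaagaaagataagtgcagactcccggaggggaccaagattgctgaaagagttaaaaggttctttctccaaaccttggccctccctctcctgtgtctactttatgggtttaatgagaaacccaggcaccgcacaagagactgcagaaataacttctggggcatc
Omd was the one window of these 4 with AGGTCA, 80 bases before the start. Of 32536 windows of the same length in the table, 14.0% held AGGTCA, 12.3% TATAAA and 66.2% CANNTG. Ogn held 3 E-boxes and an overlapping pair of TATAAA matches on opposite strands, 229 and 227 bases before the start. Aspn held 2 TATAAA matches and 1 E-box, and Fmod 1 E-box. The matches describe these letters only. RefSeq windows were found for 8 of the 10 genes. Those of Kera and Prelp, not shown, overlapped an exon of their own gene and held no match to the 3 motifs. E-boxes were found for Bgn and Epyc, also not shown.

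In DMSO the family started low and rose through culture. The 10 genes together took 0.0687% ± 0.00602 of the normalised library size (SD, n = 5) at 3 h, 0.123% ± 0.00290 at 24 h and 0.217% ± 0.00932 at 48 h. To compare genes, CPM was divided by the length of the gene model in kb. That length joins the exons of all annotated transcripts: 5838 bases over 5 transcripts for Dcn, 6099 over 8 for Bgn and 2280 over 1 for Kera. It can exceed the length of the transcripts made, so the order depends on it. By CPM alone Dcn, at 109.7 in DMSO at 3 h, stood above Kera at 72.1. At 3 h Lum led with 67.1 ± 4.11 CPM per kb (SD, n = 5), and no library of Kera, the next gene at 31.6 ± 2.63, reached it. Kera, Ogn and Bgn overlapped as neighbours in the order, as did Dcn and Fmod at 18.8 ± 1.75 and 18.6 ± 2.69 CPM per kb. Omd stood last at 0.498 ± 0.128 CPM per kb, below every library of Epyc at 3.52 ± 0.354. By 48 h the order had changed. Bgn led with 130.1 ± 8.37 CPM per kb, above all libraries of Lum at 109.7 ± 4.58. Lum overlapped Ogn at 106 ± 9.96, and Aspn followed, apart from both sides, at 79.4 ± 5.17 CPM per kb. Fmod, Kera, Prelp, Epyc and Dcn then formed a chain of overlapping neighbours from 55.3 down to 26.5 CPM per kb. Omd remained last at 5.14 ± 0.821. Under 5 µM BPAF at 48 h the means ran from Ogn (135), Bgn (126) and Lum (121) at the top to Kera (22.7) and Omd (9.69 CPM per kb) at the bottom.

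The makeup of the family's reads shifted with time as well. Kera gave 10.5% ± 0.360 of the reads of the 10 genes (SD, n = 5) at 3 h and 4.64% ± 0.584 at 48 h in DMSO. Lum went from 23.9% ± 0.813 to 12.4% ± 0.217, and Bgn from 22.5% ± 1.16 to 36.5% ± 1.35. Under 5 µM BPAF at 48 h Kera held 2.47% ± 0.341 and Omd 1.03% ± 0.110, where Omd in DMSO held 0.530% ± 0.0646. These are shares of reads and so weigh long transcripts more.

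**Figure D1:**
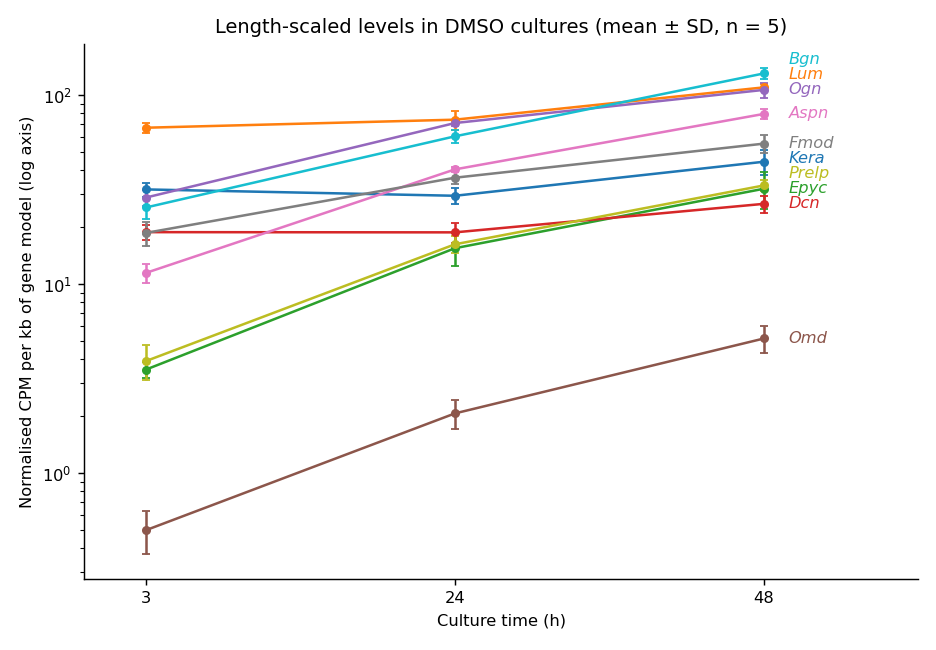
Length-scaled level (normalised CPM per kb, log axis) of each gene in DMSO cultures against hours in culture, as mean and SD of 5 libraries. Omd lies lowest at all 3 times, Bgn passes Lum between 24 and 48 h, and Dcn, Lum and Kera are nearly flat over the first day.

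Change over time was tested with edgeR's quasi-likelihood test, with p-values adjusted over all genes and a threshold of 0.05. Between 3 and 24 h of DMSO culture 7 of the 10 genes rose, against 19.1% of all genes tested (37.8% in either direction). Their levels did not overlap between the times, as for 26.0% of all genes. Between 24 and 48 h all 10 rose and were apart, where 9.71% of all genes rose, 16.3% changed and 12.4% were apart. From 3 to 48 h all 10 rose and were apart, against 25.6% that rose, 50.9% that changed and 37.2% that were apart. Without the libraries of one sex the counts were again 7, 10 and 10. From 3 to 48 h the median log2 fold change of the 10 genes was 2.13, beside -0.01 over all genes.

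In the decorin class Bgn and Aspn rose on both days and Dcn on the second. Bgn, a collagen- and TGF-beta-binding proteoglycan, rose from 155 ± 19.5 CPM (SD, n = 5) at 3 h to 369 ± 30.1 at 24 h and 793 ± 51.1 at 48 h. Its log2 fold change from 3 to 48 h was 2.36 (SE 0.08), adjusted p = 7.5e-14. Aspn, whose protein competes with decorin for collagen, rose more, by 2.80 (SE 0.08) on the log2 scale over the same span (adjusted p = 3.5e-14). Dcn libraries read 102, 104, 102, 126 and 114 CPM at 3 h, 110.4, 94.3, 127, 117 and 98.3 at 24 h and 133, 151, 165, 149 and 176 at 48 h. The first day gave a log2 fold change of -0.01 (95% interval -0.18 to 0.16), and the second day a rise of 0.50 (SE 0.09), adjusted p = 0.00082.

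The keratan sulfate class spanned the whole range of change. Omd, the osteoadherin of bone matrix, stood at 1.27, 1.34, 0.656, 1.02 and 1.31 CPM in the 3 h libraries, 4.36, 5.25, 3.87, 4.02 and 5.72 at 24 h and 10.5, 10.5, 14.1, 9.76 and 13.0 at 48 h. That was the largest rise of the 10 genes, 3.37 (SE 0.19) on the log2 scale or 10.4-fold (adjusted p = 1.1e-10). Prelp, whose protein anchors basement membranes to connective tissue, rose 8.54-fold, from 14.1 ± 2.95 to 120.1 ± 8.54 CPM. Fmod, a regulator of fibril assembly in tendon and cartilage, rose 2.98-fold, from 61.6 ± 8.90 to 183 ± 20.4 CPM.

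Lum and Kera, which space collagen fibrils in the cornea and are made in other connective tissue too, did not pass on the first day. The log2 fold change of Lum was 0.13 (adjusted p = 0.16) and that of Kera -0.12 (adjusted p = 0.21). Without DMSO 24 h replicate 2 Lum passed, at 0.18 with an adjusted p of 0.036. On the second day Lum rose by 0.57 (SE 0.07) and Kera by 0.59 (SE 0.09), with adjusted p = 5.8e-05 and 0.00043. Kera thus ended 1.41-fold above its 3 h level.

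Outside those classes, Epyc of growth cartilage rose 9.08-fold from 3 to 48 h, from 9.02 ± 0.906 to 81.7 ± 18.2 CPM. At 48 h its DMSO libraries spread widely, with 88.1, 103, 52.6, 82.7 and 82.5 CPM. Ogn, named for its find in bone and made by many connective tissue cells, rose 3.73-fold to 273 ± 25.6 CPM. On chromosome 10, Epyc rose on both days, while Dcn, Lum and Kera passed the test on the second day only. A test of one gene's rise against another's was not made.

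The genes that build and use these proteoglycans were followed in lists. Over the whole culture in DMSO, 25.6% of all genes rose and 50.9% changed. From 3 to 48 h in DMSO, 5 of 6 other family genes tested rose (Chad, Podn, Chadl, Podnl1 and Tsku), Chad, a cartilage protein, by 2.43 (SE 0.09) on the log2 scale. Of 29 glycosaminoglycan enzymes tested, 19 rose and 3 fell. Xylt1, which starts the chain on the core protein, rose by 1.82 (SE 0.08), and the chondroitin sulfotransferases Chst11 and Chst12 rose by 1.53 (SE 0.07) and 1.16 (SE 0.08). Chst14, which sulfates dermatan, fell, with a log2 fold change of -0.27 (SE 0.06). All 16 fibrillar collagens and fibril partners rose, led by Col11a2 at 2.69 (SE 0.08). All 11 processing and degrading enzymes tested rose, Pcolce2, a booster of procollagen cleavage, by 2.07 (SE 0.09). Among 10 growth factor and receptor genes bound by the family, 7 rose and Tgfb2 fell, with a log2 fold change of -0.72 (SE 0.05). The lists had median log2 fold changes of 1.32 (other family genes), 0.50 (enzymes), 1.49 (collagens), 0.75 (processing) and 0.45 (growth factors).

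At 1 µM BPAF none of the 10 genes passed the test at 3, 24 or 48 h. Of all genes, 0%, 0.00608% and 0% did so at these times. Unadjusted p-values lay under 0.05 for 1, 2 and 0 of the 10 genes, and for 424, 439 and 621 of all genes. DESeq2 and limma-voom also called none of the 10. Epyc was lowest against DMSO at each time: its log2 fold change was -0.32 (SE 0.15) at 3 h, -0.35 (SE 0.12) at 24 h and -0.22 (SE 0.15) at 48 h. The 95% intervals at 3 and 24 h lay below 0 before adjustment, at -0.63 to -0.02 and -0.60 to -0.10, and the adjusted p-values were above 0.9. At 48 h the interval for Kera was -0.40 to 0.05 and that for Omd was -0.06 to 0.46. These intervals too are before adjustment, and changes within them remain possible. Every gene overlapped DMSO at each of the 3 times.

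After 3 h with 5 µM BPAF none of the 10 genes passed the test, and all overlapped DMSO, while 0.180% of all genes passed. The unadjusted p was above 0.05 for all 10, and DESeq2 and limma-voom called none. Their log2 fold changes ran from -0.16 for Epyc to 0.16 for Prelp. The interval was narrow for Kera (-0.14 to 0.17) and wide for Omd (-0.59 to 0.67), which gave only about 1 CPM at that time.

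After 24 h with 5 µM, 1 of the 10 genes passed, where 1.57% of all genes passed and 0.475% were higher. Omd stood at 7.41, 7.08, 10.2, 6.73 and 6.90 CPM, and DMSO at 4.36, 5.25, 3.87, 4.02 and 5.72 CPM. All 5 treated libraries lay above all 5 of DMSO, at 1.66-fold, a log2 fold change of 0.73 (SE 0.16) with an adjusted p of 0.039. The call was lost without DMSO replicate 1, 2, 3 or 4 or BPAF replicate 1, 2 or 3 (log2 fold change 0.61 to 0.78, adjusted p = 0.067 to 0.10). Without the libraries of one sex it was also lost, at 0.71 with an adjusted p of 0.22. Aspn lay the other way, with 76.3, 90.3, 85.8, 74.0 and 59.3 CPM under 5 µM and 93.2, 92.5, 94.8, 98.6 and 96.3 in DMSO. Its groups were apart too, as for 3.54% of all genes, but its log2 fold change of -0.29 (SE 0.09) did not pass (adjusted p = 0.15). Kera, at -0.25 (SE 0.08), and Epyc, at -0.37 (SE 0.14), did not pass either, with adjusted p = 0.16 and 0.3.

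**Figure D2:**
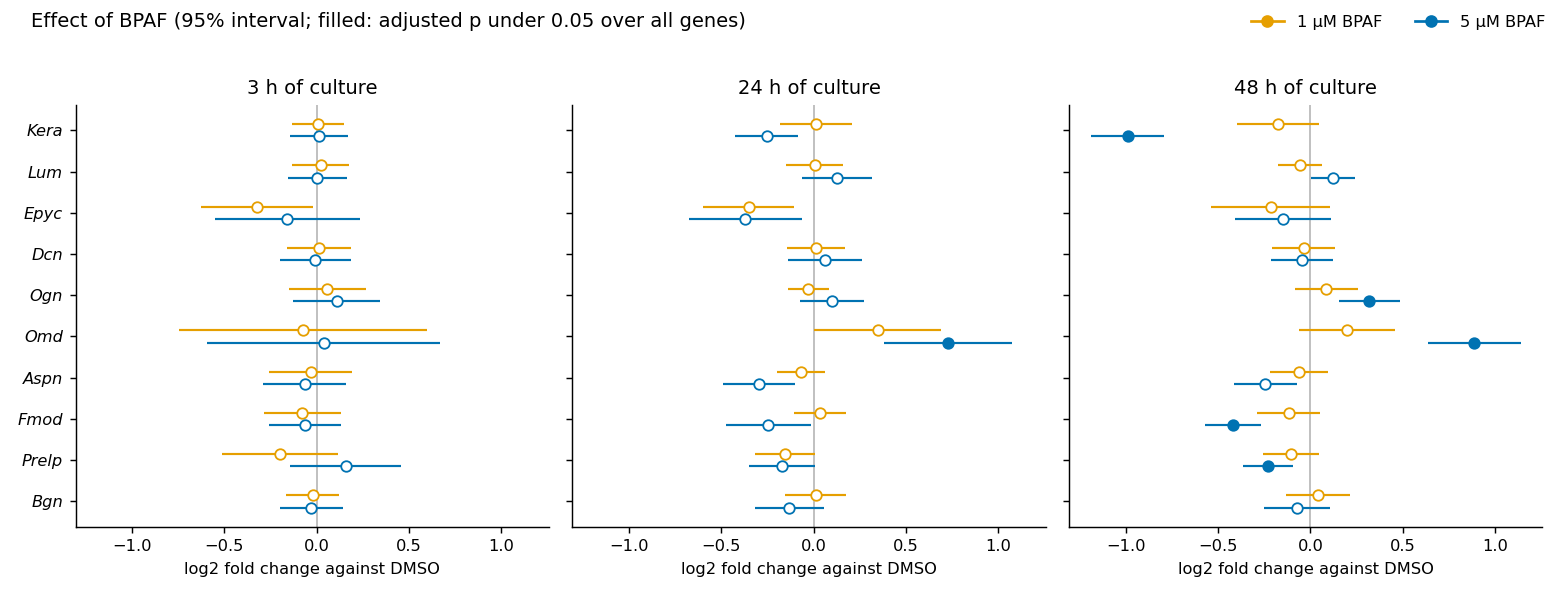
Log2 fold change of each gene against DMSO of the same time, at 3, 24 and 48 h, for 1 µM (orange) and 5 µM BPAF (blue), with 95% intervals; filled points have an adjusted p under 0.05. Omd is filled at 24 h, and Kera, Ogn, Omd, Fmod and Prelp at 48 h, all at 5 µM.

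After 48 h with 5 µM BPAF the family split: Omd and Ogn rose, Kera, Fmod and Prelp fell, and the other 5 genes did not pass. Of all genes 7.16% passed, 2.74% higher and 4.42% lower. The median log2 fold change of the 10 was -0.11, beside -0.0019 for all genes. Without the libraries of one sex 5 of the 10 passed as well. Together the 10 genes made up 0.211% ± 0.0200 of the normalised library size (SD, n = 5), beside 0.217% in DMSO, a gap smaller than the spread. The groups were apart for Kera, Fmod and Omd, as for 7.54% of all genes. These are whole-limb libraries, in which fewer cells of a type and less RNA per cell cannot be told apart.

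Kera had the largest log2 fold change in size. Its libraries read 57.6, 52.1, 46.9, 56.5 and 45.7 CPM under 5 µM, 82.0, 84.1, 76.6, 92.8 and 112 under 1 µM and 82.5, 89.9, 109.9, 104 and 119 in DMSO. All 5 libraries at 5 µM lay below all of the other 10, and 1 µM overlapped DMSO. The log2 fold change was -0.99 (SE 0.09), that is 0.504 of the DMSO level, with an adjusted p of 3.4e-06. Keratocan is a keratan sulfate proteoglycan best known from the corneal stroma. For comparison, the DMSO libraries at 3 h read 67.1 to 81.5 CPM, above all 5 of these treated libraries; that difference was not tested.

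Omd went the other way. At 48 h it read 20.9, 20.5, 26.0, 18.5 and 23.1 CPM under 5 µM, 12.2, 11.3, 14.2, 15.3 and 13.6 under 1 µM and 10.5, 10.5, 14.1, 9.76 and 13.0 in DMSO. The 5 µM libraries were apart from and above both other groups, and 1 µM overlapped DMSO. Its log2 fold change was 0.89 (SE 0.12), or 1.85-fold, with an adjusted p of 0.00011.

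Fmod read 143, 132, 157, 129.9 and 132 CPM under 5 µM and 164, 179.8, 186, 169 and 216 in DMSO. The groups did not overlap, at a log2 fold change of -0.42 (SE 0.07) and an adjusted p of 0.0011. Ogn read 366, 289, 386, 348 and 344 CPM under 5 µM and 281, 228, 292, 285 and 279 in DMSO. One treated library fell inside the DMSO range. Its log2 fold change was 0.32 (SE 0.08), adjusted p = 0.017. Without BPAF replicate 1 it was 0.30 with an adjusted p of 0.052.

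Prelp read 103, 92.1, 109, 106 and 110.1 CPM under 5 µM and 123, 132, 109, 116 and 119.8 in DMSO, and the ranges overlapped narrowly. It fell by 0.23 on the log2 scale (SE 0.06, adjusted p = 0.036). That call was lost without DMSO replicate 1, 2, 4 or 5 or any BPAF replicate (log2 fold change -0.24 to -0.19, adjusted p = 0.054 to 0.093). It was also lost in 1 fit over all 45 libraries, at -0.21 with an adjusted p of 0.25.

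The remaining 5 genes did not pass at 48 h. Aspn was nearest, with 177, 133, 190.4, 151 and 153 CPM under 5 µM and 199.7, 177, 199, 173 and 186 in DMSO, a log2 fold change of -0.24 (SE 0.08) and an adjusted p of 0.087. Without BPAF replicate 3 it passed, at -0.30 with an adjusted p of 0.030, and with the replicate block at -0.25 with an adjusted p of 0.0066. Lum, at 297 ± 19.6 CPM under 5 µM and 269 ± 11.2 in DMSO (SD, n = 5), had a log2 fold change of 0.12, interval 0.00 to 0.24. For the other 3 the 95% intervals were -0.25 to 0.10 (Bgn), -0.21 to 0.12 (Dcn) and -0.41 to 0.11 (Epyc). None of these intervals reaches the log2 fold change of Kera or Omd.

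**Figure D3:**
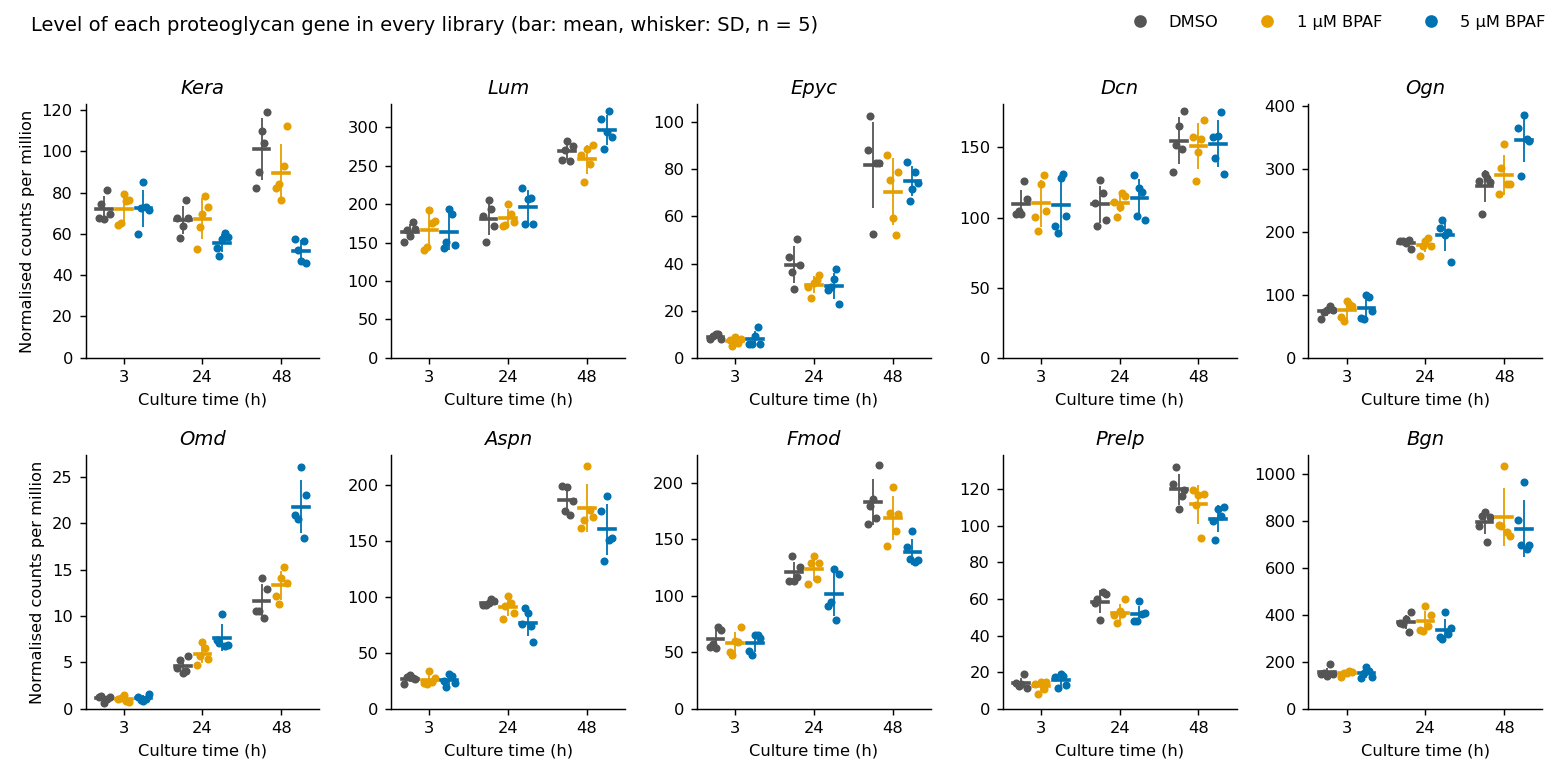
Normalised CPM of each gene in all 45 libraries against hours in culture, in DMSO (grey), 1 µM (orange) and 5 µM BPAF (blue); bars are means, whiskers SDs of 5 libraries. At 48 h the blue points of Kera lie below, and those of Omd above, every other point of their panel at that time.

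The 2 doses were also set against each other. At 3 h none of the 10 genes differed between 5 and 1 µM, where 0.0360% of all genes did. Unadjusted p-values were under 0.05 for 1 of the 10 and for 989 of all genes, and DESeq2 and limma-voom called none. At 24 h none differed, where 1.19% of all genes did. There 4 of the 10 and 1598 of all genes had an unadjusted p under 0.05, and again DESeq2 and limma-voom called none. Same-numbered libraries deviated together in the 3 and 24 h comparisons of the doses. With replicate number as a block, 50 and 319 of all genes passed at 3 and 24 h in place of 6 and 196. None of the 10 passed at 3 h, and at 24 h Fmod did, at -0.30 with an adjusted p of 0.026. At 48 h 3 of the 10 differed, against 5.96% of all genes (2.19% higher and 3.77% lower). Omd was higher by 0.69 (SE 0.11) on the log2 scale (adjusted p = 0.00058) and Kera lower, at -0.81 (SE 0.10) (adjusted p = 2.8e-05). Both were apart between the doses, as for 6.72% of all genes.

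Fmod was lower too, at -0.30 (SE 0.08) with an adjusted p of 0.025, and its ranges overlapped. The Fmod call was lost without replicate 2, 3 or 5 of 1 µM or replicate 2, 4 or 5 of 5 µM (log2 fold change -0.29 to -0.24, adjusted p = 0.054 to 0.076). It was also lost, at -0.28, with the Y-linked covariate, without the libraries of one sex and in 1 fit over all 45 libraries (adjusted p = 0.065 to 0.12), so it held in 10 of 19 repeats.

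Ogn, at 0.23 (SE 0.08), had an adjusted p of 0.1 and passed in 6 of 19 repeats. These were without 1 µM replicate 3 or 5 µM replicate 2 (adjusted p = 0.022 to 0.025), and with DESeq2, no low-count filter and either replicate block (adjusted p = 0.0016 to 0.043). Lum, with an adjusted p of 0.095, passed in 2 of 19, with DESeq2 and the replicate block (adjusted p = 0.027 to 0.042). Both dose comparisons with DMSO use the same DMSO libraries, so their values are not independent.

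Whether the effect of 5 µM itself changed with time was tested as a difference of differences. For Kera the effect at 48 h was more negative than at 3 h, by -0.99 (SE 0.13) on the log2 scale (adjusted p = 2.8e-05). It was the only member to pass there, where 2.80% of all genes passed and 2.04% were lower. Kera was also the only member to pass between 48 and 24 h, at -0.72 (SE 0.13) and adjusted p = 0.032, against 0.0693% of all genes and 0.0635% lower. This second call was lost without any of 10 libraries: DMSO 24 h replicate 2, 3 or 5, BPAF 24 h replicate 3 or 4, DMSO 48 h replicate 3, 4 or 5, and BPAF 48 h replicate 3 or 5. Their adjusted p-values were 0.057 to 0.093 at log2 differences of -0.73 to -0.66. Without the libraries of one sex it was -0.61, adjusted p = 0.37.

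For Omd the difference between 48 and 3 h was 0.86 (SE 0.26), adjusted p = 0.079, and did not pass. It passed without DMSO 3 h replicate 3, BPAF 3 h replicate 5 or DMSO 48 h replicate 3 (0.95 to 1.01, adjusted p = 0.022 to 0.046). Between 24 and 3 h none of the 10 passed, against 0.336% of all genes. There 2 of the 10 and 1325 of all genes had an unadjusted p under 0.05, and DESeq2 and limma-voom called none.

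Neighbours on a chromosome were read side by side. In the chromosome 10 cluster Kera fell at 5 µM and 48 h, while Lum, the next gene, 34.2 kb upstream, did not pass. Within a library, the reads of Lum stood at 2.70 ± 0.352 times those of Kera in DMSO (SD, n = 5) and 5.76 ± 0.493 times under 5 µM. The ratio ran from 2.32 to 3.12 in DMSO and from 5.20 to 6.29 at 5 µM, with no overlap. Dcn to Kera went likewise from 1.54 ± 0.103 to 2.96 ± 0.275. In the chromosome 13 cluster Omd rose and Ogn rose less, while Aspn did not pass. The reads of Ogn stood at 1.46 ± 0.131 times those of Aspn in DMSO and 2.17 ± 0.119 times at 5 µM, and Omd to Aspn went from 0.0618 ± 0.00805 to 0.137 ± 0.0164, both without overlap. Such ratios do not depend on library scaling and say nothing of which of a pair changed; the pairs were chosen with results known and the ratios are given without a test. On chromosome 1 both Prelp and Fmod fell.

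**Figure D4:**
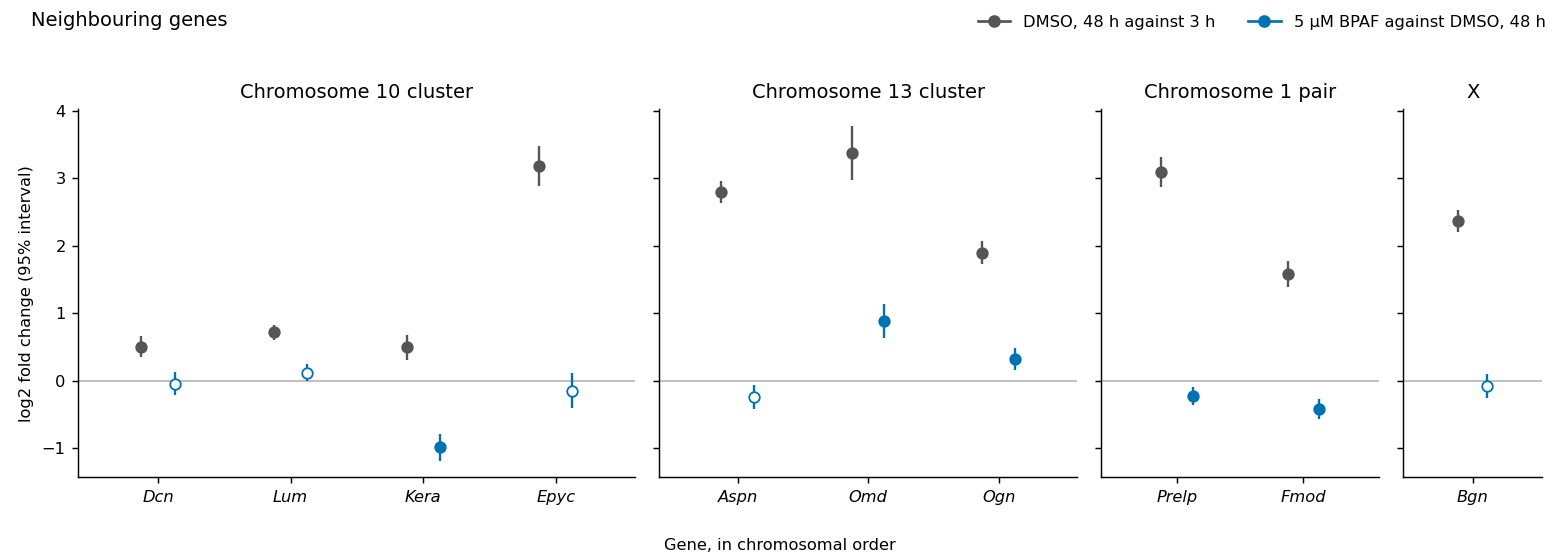
Log2 fold changes with 95% intervals for the genes of each genomic cluster, in chromosomal order: DMSO 48 h against 3 h in grey, 5 µM BPAF against DMSO at 48 h in blue, filled where the adjusted p is under 0.05. Grey points lie above 0 throughout, while blue points lie on both sides of 0 in the chromosome 10 and 13 clusters.

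Markers of cell types that a limb holds were read beside these genes. At 5 µM and 48 h, 4.42% of all genes fell and 2.74% rose. All 6 muscle markers fell at 5 µM and 48 h, led by Pax7 of muscle stem cells at -1.99 (SE 0.13) on the log2 scale. Their summed level was 2493 to 4021 CPM in DMSO and 1366 to 1616 under 5 µM, apart as Kera was. At 24 h the sums were 1913 to 2336 and 1306 to 1539 CPM, also apart, while Kera overlapped. In DMSO the median muscle sum was 789, 2183 and 3171 CPM at 3, 24 and 48 h. Kera averaged 72.1, 66.8 and 101 CPM at these times, with no rise called on the first day. Of 5 smooth muscle and pericyte markers 2 fell, Rgs5 at -1.77 (SE 0.16) and Acta2 at -0.95 (SE 0.11), with sums of 745 to 828 CPM in DMSO and 702 to 783 at 5 µM. Of 4 connective tissue fibroblast markers 2 fell, Dpt at -0.68 (SE 0.14) and Pi16 at -1.25 (SE 0.32), while the sums overlapped at 671 to 806 and 718 to 839 CPM. The part of muscle, pericytes or fibroblasts in the fall of Kera, Fmod and Prelp was not tested.

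Of 7 hypertrophic cartilage and osteoblast markers tested 2 fell, where 4.42% of all genes fell. These were Ibsp, a bone sialoprotein, at -1.34 (SE 0.23) and Col10a1, the collagen of hypertrophic cartilage, at -1.17 (SE 0.34). Omd, itself a bone matrix gene, rose in the same limbs. At 24 h, when Omd also passed, the sums of this list were 280.5 to 346 CPM in DMSO and 163 to 209 at 5 µM, without overlap. The osteoblast genes Sp7, Runx2 and Alpl did not pass, with log2 fold changes of -0.03, 0.01 and 0.14. The summed level of this list, over 8 markers, was 1062 to 1406 CPM in DMSO and 485 to 990.5 at 5 µM. No chondrocyte marker of 8 and no tendon marker of 4 passed by edgeR, and 3 and 1 had an unadjusted p under 0.05, with chondrocyte sums of 13460.2 to 16871 CPM in DMSO and 16162 to 19934 at 5 µM, and tendon sums of 264 to 386 and 233 to 472. Also lower were 4 of 5 macrophage markers, with sums of 159 to 221 CPM in DMSO and 109 to 128 at 5 µM, and 2 of 5 endothelial markers, with 207 to 235 and 145 to 196 CPM. Of keratinocyte markers 2 of 5 fell, of erythroid markers 1 of 6 and of Schwann cell markers none of 4, and the sums of these 3 lists overlapped. No marker was at 0 in all libraries of a group. Their part in the changes of Omd and Ogn was not tested.

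**Figure D5:**
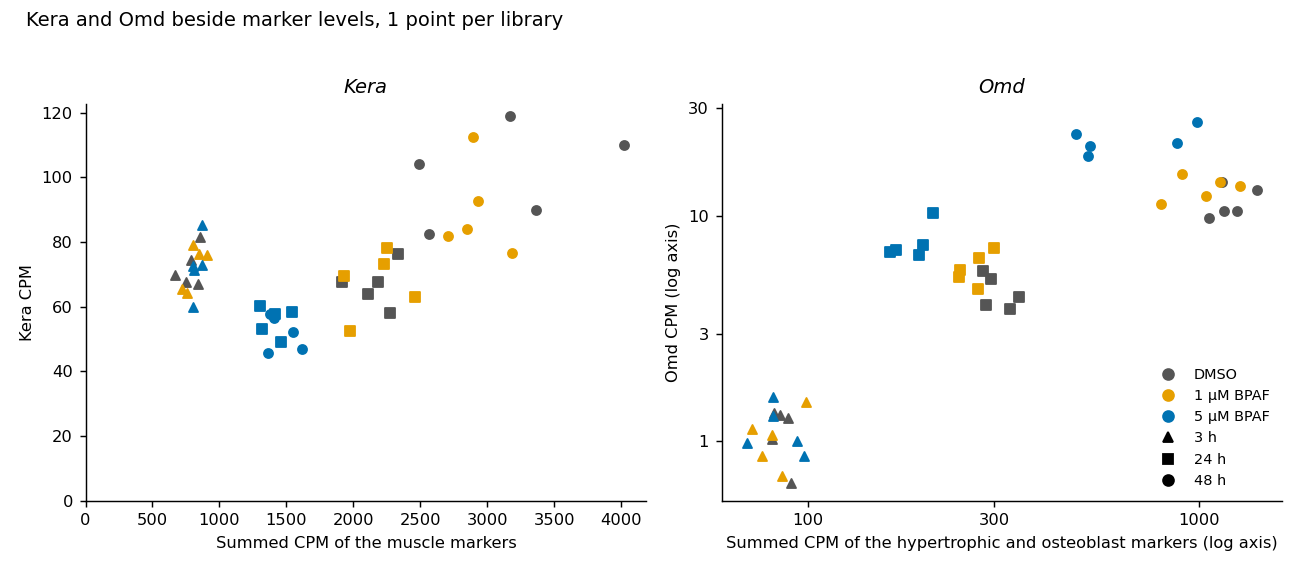
Kera against the summed muscle markers (left, linear axes) and Omd against the summed hypertrophic and osteoblast markers (right, log axes), in CPM, 1 point per library, coloured by dose and shaped by hours in culture. Blue circles (5 µM, 48 h) have less of Kera and of the muscle markers than all other circles, and more of Omd than all other circles.

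The lists around the family were followed under BPAF too. At 5 µM 1.57% of all genes passed at 24 h and 7.16% at 48 h. At 1 µM no gene of these 5 lists passed by edgeR at any time, and 3, 1 and 4 genes had an unadjusted p under 0.05 at 3, 24 and 48 h. At 5 µM and 3 h none passed either, with 6 such genes. After 24 h at 5 µM, Mmp13, a collagenase gene, rose by 2.18 (SE 0.49) on the log2 scale, and the fibrillar collagen gene Col27a1 by 0.31 (SE 0.06). At 5 µM and 48 h 1 of 6 other family genes rose, Podnl1, from 6.58 ± 0.897 to 11.0 ± 1.32 CPM, a log2 fold change of 0.71 (SE 0.13) with adjusted p = 0.0025. Of 30 glycosaminoglycan enzymes tested 6 rose and 2 fell, where 2.74% of all genes rose and 4.42% fell. Fam20b and Xylt1, which act on the linker between core protein and chain, rose by 0.29 (SE 0.05) and 0.36 (SE 0.08), and Chpf2, which helps extend chondroitin, by 0.28 (SE 0.07). Ust, Chst2 and Csgalnact1 rose as well, by 0.33 (SE 0.09), 0.25 (SE 0.07) and 0.24 (SE 0.07). Chst15 (chondroitin) and Chst5 (keratan sulfate) fell, with log2 fold changes of -0.30 (SE 0.08) and -0.49 (SE 0.13). So the 2 keratan sulfate enzymes that passed, Chst2 and Chst5, went opposite ways.

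None of the 16 fibrillar collagens and partners passed at 48 h by edgeR, and 4 had an unadjusted p under 0.05. Col2a1, at 0.24 (SE 0.07), had an adjusted p of 0.061. Among 11 processing enzymes Mmp13 rose by 1.43 (SE 0.36) and Adamts5, which can cut proteoglycan cores, fell, at -0.30 (SE 0.07). Mmp13 was scarce, at 1.27 ± 0.274 CPM in DMSO and 3.47 ± 2.03 at 5 µM, where its libraries spread widely. Of 10 growth factor and receptor genes Egfr, a receptor that decorin binds, rose by 0.31 (SE 0.06). The medians of the 5 lists were 0.21 (other family genes), 0.09 (enzymes), -0.09 (collagens), -0.04 (processing) and 0.05 (growth factors).

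For each gene, the 3 genes outside the family with the most similar level across the 45 libraries were found among 12677 expressed genes, by Pearson's r of log2 CPM. These r are descriptions, since libraries of a group share time and dose. Epyc lay nearest to cartilage genes, Cnmd (0.99), Hapln1 (0.99) and Acan (0.99), and so did Prelp, to Cnmd (0.99), Acan (0.99) and C1qtnf3 (0.99). Cnmd and Acan, a cartilage angiogenesis inhibitor and the large cartilage proteoglycan, appeared for both. Fmod lay nearest to C1qtnf3 (0.97), Aqp1 (0.97) and Tnmd (0.97), of which Tnmd is a tendon marker. Aspn lay nearest to Smpd3 (0.99), Thbs2 (0.99) and C1qtnf3 (0.99) and Bgn to Penk (0.98), Aebp1 (0.98) and Dlk1 (0.98). Ogn lay nearest to Col8a2 (0.99), Ikbip (0.99) and Col16a1 (0.98), and Lum to Scara3 (0.94), Cd44 (0.94) and Nomo1 (0.94).

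Dcn lay nearest to Col3a1 (0.90), Dmkn (0.87) and Krt1 (0.87); Col3a1 is the collagen of soft connective tissue and Krt1 a keratin of skin. Omd lay nearest to Nfic (0.99), Sdk2 (0.98) and Inf2 (0.97). Kera had the loosest neighbours, Rgs5 (0.82), Atp1b4 (0.78) and Pdlim3 (0.77). Rgs5 is in the list of smooth muscle and pericyte markers. Atp1b4 and Pdlim3 are in none of the marker lists, so no cell type was read from them here. At 5 µM and 48 h the log2 fold changes of Rgs5, Atp1b4 and Pdlim3 were -1.77, -3.59 and -0.91. Since these libraries helped to choose them, this is a description. After removal of group means, their r with Kera was 0.37, 0.25 and 0.31. For Omd the values with Nfic, Sdk2 and Inf2 were then 0.53, 0.02 and 0.33. Those of the other genes ran from 0.44 (Bgn with Dlk1) to 0.82 (Epyc with Cnmd).

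Within the family the pairs most alike inside groups, after removal of group means, were Dcn with Lum (r = 0.84), Aspn with Ogn (r = 0.81) and Prelp with Epyc (r = 0.67). The first 2 pairs share a cluster, and the genes of the last lie on different chromosomes. Other pairs within a cluster had lower and varied values. On chromosome 10 these were Dcn with Kera 0.58, Lum with Kera 0.55, Lum with Epyc 0.43, Dcn with Epyc 0.38 and Kera with Epyc 0.24. On chromosome 1 Fmod with Prelp had 0.44, and on chromosome 13 Omd with Aspn had 0.15 and Omd with Ogn -0.08. Omd with Epyc had the lowest value, -0.27, although over all 45 libraries, where time dominates, they reached 0.93. Omd had the lowest counts of the 10 genes.

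The authors' deposited table for 5 µM against DMSO at 48 h lists log2 fold changes of -0.98 for Kera, 0.90 for Omd, -0.41 for Fmod, 0.33 for Ogn and -0.22 for Prelp. Its adjusted p-values run from 2.4e-20 for Kera to 0.019 for Prelp, and the other 5 genes are above 0.05 in the authors' deposited table. At 24 h the authors' deposited table lists Omd at 0.73 with an adjusted p of 0.0027, and Aspn at -0.29 with 0.088.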

How the data were processed

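Poly-A RNA of 45 whole-forelimb cultures was sequenced, and 9 deposited tables, each comparing 2 groups, were joined by gene identifier. Per the submitters' processing notes, the build was mm10, and the software was CASAVA (1.8), HTSeq (0.6.1), DESeq2 and the aligner STAR (2.5). The order of the steps and the strand setting are not given in the sources used here. Read counts are as the authors deposited them, and a gene missing from a table was read as 0 (11.7% of values). The deposited signal columns are counts divided by a size factor (relative deviation up to 5.2e-10), and the deposited FPKM values were proportional to them within 1%; neither was used further. The authors' deposited log2 fold changes and p-values are quoted only where named. Their column headers do not name a tool, and the processing notes list DESeq2.

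Counts were tested with edgeR 4.0.16 (R 4.3.3): TMM scaling, filterByExpr (minimum count 10, total 15), the quasi-likelihood test within the groups compared, and Benjamini-Hochberg adjustment over all genes, with a threshold of 0.05. SEs came from the F statistic. CPM used TMM over all 45 libraries. Genes were compared with each other per kb of the deposited gene length.

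Fits for 2 doses, 3 times and 3 differences between times were repeated with RLE scaling, DESeq2 1.42.0, limma-voom (limma 3.58.1), no filter, 1 fit over all libraries, a replicate block, a Y-linked covariate and each library left out. A repeat without 7 libraries of one sex was added after seeing the data. Replicate numbers were taken to pair libraries where every same-numbered pair of deviations correlated above 0.1: 1 µM against DMSO at 24 h (0.18 to 0.51), and 5 against 1 µM at 3 h (0.19 to 0.44) and 24 h (0.10 to 0.28). In counts simulated for 5 µM against DMSO at 48 h over 16112 genes, 55% of genes changed by 0.5 and 79% of those changed by 1 (log2) were called, with 8 false calls.

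The 10 genes and the lists were chosen with earlier results of these data known. All 10 are named; from each list up to 3 called genes per comparison with the smallest p, all called genes where 5 or fewer were called, and the 3 genes nearest in pattern to each of the 10. Enzymes, markers and Col2a1 beyond that rule were picked after their values were seen. Intervals are 95% intervals. Precision is set by 5 libraries per group and a median of 17820524 counts per library.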

Additional observations from a re-analysis of the deposited data

Results flagged for a closer look

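In 5 of 90 gene-by-group sets of 5 libraries, 1 library stood apart from the other 4 by Dixon's ratio (above 0.71), and chance gives about 1 in 20. Bgn read 188 CPM in DMSO 3 h replicate 4, next to 153, and 1032 CPM in 1 µM 48 h replicate 3, next to 783. That last library was also highest for Aspn, at 217 CPM next to 178. Omd read 10.2 CPM in 5 µM 24 h replicate 3, next to 7.41. Ogn read 228 CPM in DMSO 48 h replicate 2, below the next at 279. Neither Bgn nor Aspn was called at 1 µM and 48 h with or without replicate 3.

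The effect of 5 µM BPAF on Kera differed between culture times by the test of the difference itself (edgeR interaction). It was more negative at 48 h than at 24 h, by -0.72 (adjusted p = 0.032), and than at 3 h, by -0.99 (adjusted p = 2.8e-05), on the log2 scale. The difference between 48 and 24 h was called in 17 of 28 repeats, and without the libraries of one sex it was -0.61 with an adjusted p of 0.37.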

How the results depend on the processing

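Over all alternatives, no result for the 10 genes that was called as reported or in the repeat reversed. Results called in neither were not read for direction, and some changed sign. The log2 fold change of Dcn at 5 µM and 48 h, for example, ran from -0.09 to 0.02. Of the called results, 668 repeats kept the call and 39 lost it. The 668 include the calls over time in DMSO, which no repeat lost. All 39 losses were of calls at 5 µM, against DMSO or 1 µM or for the change of its effect with time. Of the uncalled, 2291 stayed uncalled and 22 passed. At 5 µM and 48 h Kera, Omd and Fmod were called in 18 of 18 repeats, Ogn in 17 and Prelp in 8, and the number of the 10 genes called was 3 to 5 with 1 library left out (3 without 5 µM replicate 1). Aspn there passed in 2 of 18, without 5 µM replicate 3 and with the replicate block (-0.25, adjusted p = 0.0066). At 5 µM and 24 h it was 3 with the replicate block (Omd higher, Aspn and Kera lower), 2 with the Y-linked covariate, 0 without the libraries of one sex, and 0 to 1 with 1 library left out. For 5 against 1 µM at 24 h it was 1 with the replicate block. At 48 h it was 5 with DESeq2, 5 with the replicate block and 5 with the block by library code, which exchanges 1 µM replicates 1 and 2; it was 2 with the Y-linked covariate, 2 without the libraries of one sex, 2 in 1 fit over all libraries and 2 to 3 with 1 library left out. The change of effect between 48 and 24 h gave 0 without the libraries of one sex and 0 to 1 with 1 library left out; between 48 and 3 h it gave 2 with DESeq2, 2 with the covariate, 2 without the libraries of one sex and 1 to 2 with 1 left out. The cause was not tested, beyond fewer samples in the repeats that leave libraries out. Over all genes, the number called moved by over 1.5 times under some alternative as follows: for 5 µM, 15 to 115 at 3 h (30 as reported) and 64 to 655 at 24 h (258); for 5 against 1 µM, 1 to 50 at 3 h (6), 95 to 553 at 24 h (196) and 718 to 1618 at 48 h (974); for the changes of effect, 16 to 149 from 3 to 24 h (59) and 2 to 50 from 24 to 48 h (12); for DMSO 48 h against 24 h, 1247 to 3223 (2677). For 1 µM it was 0 to 4 over the 3 times. Outside the comparisons where numbers were taken to pair the libraries, not every same-numbered pair of deviations correlated above 0.1. For 5 µM against DMSO the pairs ran from 0.01 to 0.41 at 24 h and from 0.06 to 0.47 at 48 h. Pairs with different numbers were not compared, so whether the block is apt there was not settled. Omd averaged about 1 CPM at 3 h, so depth limits what could be seen there.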
